A study of Mus musculus with 1528 samples.

Results

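The leukocyte integrin genes described here were 8 rows of the count table, chosen by name from its 55421 genes: *Itgax*, *Itgam*, *Itgal*, *Itga4* and *Itga6* for alpha chains and *Itgb1*, *Itgb2* and *Itgb7* for beta chains. All 8 passed the filter on low counts, as did 17034 genes in all. They were measured by Smart-seq2 in single macrophages (BMDMs) that had been grown in CSF1 from the bone marrow of 2 wild-type mice and then kept for 24 h in IL4+IL13, either alone (below, without TNF) or together with TNF (below, with TNF), 10 ng/ml being used for every cytokine. Both groups therefore carried IL4 and IL13, and neither an unstimulated nor a TNF-only single-cell group was analysed here. The methods give male C57BL/6J donors for these cultures, and the labels do not state an age. Mouse 1 and mouse 2 stand for the number in the sample titles, read here as the animal. Each of the 4 plates (2 and 3 for mouse 1, 4 and 5 for mouse 2) held both treatments of 1 mouse in separate rows, so that row position and treatment cannot be told apart.

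Integrins are heterodimers of 1 alpha and 1 beta chain that bind other cells and extracellular matrix, and they are switched on from inside the cell by talin and kindlin. *Itgb2* encodes the beta chain that leukocytes share among several receptors: with *Itgal* it forms LFA-1, which binds ICAMs, with *Itgam* (CD11b) it forms complement receptor Mac-1, and with *Itgax* (CD11c) it forms a related complement receptor that is widely used to mark dendritic cells and is also made by some macrophages. *Itga4* pairs with *Itgb1* to bind VCAM-1 and fibronectin, or with *Itgb7* to bind the gut addressin MAdCAM-1, and *Itga6* pairs with *Itgb1* to bind laminin.

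After removal of poor wells, 1386 of 1524 wells were kept. They were 357 wells of mouse 1 and 333 of mouse 2 without TNF, and 347 and 349 with TNF, with medians of 447264 to 490310 fragments per cell. Macrophage markers were together high in every set of cells, where the 8 genes summed to 15578 and 17449 CPM without TNF and to 27275 and 26643 CPM with TNF. CPM is a gene's fragments scaled to its library's total, which was adjusted by TMM for single genes given per mouse or plate. The list did not move as its sum did. In both mice 2 of the markers were higher with TNF and 6 were lower, and their median log2 fold change was -0.20. In the test with the mouse as a block, described below, *Lyz2* rose and *Mertk* and *Fcgr1* fell among them. The T, B, NK, neutrophil, mast cell and stromal lists summed to at most 10.7 CPM in any set, and 2 of the 6 NK cell genes, *Ncr1* and *Gzma*, were at 0 in all of them. The 8 dendritic cell markers summed to 10.7 and 16.4 CPM without TNF and to 31.6 and 206 CPM with TNF. Most of that difference was *Ccr7*, at 0.110 and 0.433 CPM against 21.4 and 195 CPM, whereas *Flt3* was at 7.21 and 6.68 CPM against 7.53 and 7.17 CPM.

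*Itgam* and *Itgax* lie side by side on mouse chromosome 7 in the same orientation, at chr7:128062640-128118491 and chr7:128129547-128150657 of mm10, with 11055 bases between them, and *Itgal* lies at chr7:127296260-127335138. *Itga4* and *Itga6* are on chromosome 2 (chr2:79255426-79333123 and chr2:71745616-71858416), *Itgb1* is at chr8:128685654-128733200, *Itgb2* at chr10:77530252-77565708 and *Itgb7*, on the minus strand, at chr15:102215995-102231944. The 250 bases before the RefSeq start (GRCm38.p6) are shown for *Itgax* and *Itgam*, the neighbours with unlike values, and for *Itgb7*, which had the largest negative fold change among the 8 genes. They are read from 5′ to 3′ on the strand of the gene, from chr7:128129300-128129549, chr7:128062390-128062639 and chr15:102231936-102232185, and capitals mark matches to the motifs named below.
Itgax: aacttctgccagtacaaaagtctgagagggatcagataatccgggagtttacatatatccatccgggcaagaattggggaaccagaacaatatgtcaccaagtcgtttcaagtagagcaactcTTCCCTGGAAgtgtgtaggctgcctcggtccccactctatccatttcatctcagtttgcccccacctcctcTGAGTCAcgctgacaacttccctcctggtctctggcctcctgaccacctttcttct
Itgam: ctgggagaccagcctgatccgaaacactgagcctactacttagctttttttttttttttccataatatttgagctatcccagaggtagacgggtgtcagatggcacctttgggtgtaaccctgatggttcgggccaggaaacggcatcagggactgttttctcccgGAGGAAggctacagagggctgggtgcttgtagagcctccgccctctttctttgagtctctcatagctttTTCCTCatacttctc
Itgb7: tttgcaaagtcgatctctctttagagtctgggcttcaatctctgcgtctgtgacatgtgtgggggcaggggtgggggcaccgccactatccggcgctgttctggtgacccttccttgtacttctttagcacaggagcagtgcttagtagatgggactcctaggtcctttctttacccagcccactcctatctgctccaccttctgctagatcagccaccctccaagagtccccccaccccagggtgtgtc
Both strands were searched for GAGGAA, the core bound by PU.1, and for TGANTCA, bound by AP-1. A form of the STAT motif (TTC and GAA separated by 4 bases of any kind) was also sought. So was a form of the NF-kB motif (GGG and TTCC separated by 3). Other spacings were not searched. *Itgax* held TGANTCA at bases 56 to 50 before the start and the STAT motif at bases 127 to 118. *Itgam* held GAGGAA at bases 84 to 79 and again at bases 15 to 10. *Itgb7* held none of them in this window. Among 32851 promoters of the same length, 23.3% held GAGGAA, 6.75% TGANTCA, 5.85% the STAT motif and 4.65% the NF-kB motif, so these matches are a description of the letters and not of binding.

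How the fragments were counted bears on *Itgam*. A predicted protein-coding gene, *Gm49368*, overlaps it and shares 3450 of its 5024 exonic bases (68.7%) in the GENCODE vM21 annotation. *Itgam* held 148976 fragments over all wells and *Gm49368* held 773. Fragments that lie on both genes are, by default, assigned to neither by the counting tool. That default was assumed here, and *Itgam* was therefore also scaled by its 1574 unshared bases. *Itga4* shares 1124 of 13978 bases with *Cerkl*, and the other 6 genes share none.

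Per kilobase of gene model, *Itgb2* had the highest level without TNF, at 198 ± 8.05 CPM per kb (SD, n = 2 mice). It was followed by *Itgb1* at 75.7 ± 6.55, *Itgam* at 44.6 ± 16.3 and *Itgb7* at 40.0 ± 7.75 CPM per kb, of which the last 2 did not differ beyond their spread. Then came *Itga4* at 4.66 ± 0.950, *Itgax* at 3.28 ± 2.15 and *Itga6* at 2.55 ± 0.606 CPM per kb, whose neighbours again lay within each other's spread, and *Itgal* was lowest at 0.264 ± 0.241 CPM per kb. Scaled by its unshared bases, *Itgam* reached 142 ± 52.1 CPM per kb and stood above *Itgb1* in this order. With TNF, *Itgb2* was again highest at 294 ± 49.9 CPM per kb and *Itgax*, at 21.3 ± 3.46 CPM per kb, stood above *Itgb7* at 12.5 ± 4.17 CPM per kb.

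TNF was compared with its absence on counts summed per mouse and treatment. In the edgeR quasi-likelihood fit with treatment as the only term, 0 of the 8 genes passed an adjusted p of 0.05, where 0.00587% of all genes did, and 4 had an unadjusted p under 0.05 (*Itgax*, *Itga6*, *Itgb2* and *Itgb7*), where 8.1% of all genes did. The mouse was also fitted as a block, which takes the number that both treatments share in the titles as the animal. With that block *Itgax* rose and *Itgb7* fell, 2 of 8 genes against 3.82% of all genes (1.94% higher and 1.88% lower with TNF). DESeq2 called the same 2 genes, against 3.51% of all genes. The 2 mice did not overlap between treatments for 5 of the 8 genes (*Itgax*, *Itga6*, *Itgb1*, *Itgb2* and *Itgb7*), against 36.4% of all genes, and the 4 plates did not overlap for 4 of them (*Itgax*, *Itga6*, *Itgb2* and *Itgb7*), against 11.3% (6.16% higher and 5.17% lower with TNF). The members' median log2 fold change was -0.20, beside 0.00 over all genes tested.

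**Figure D1:**
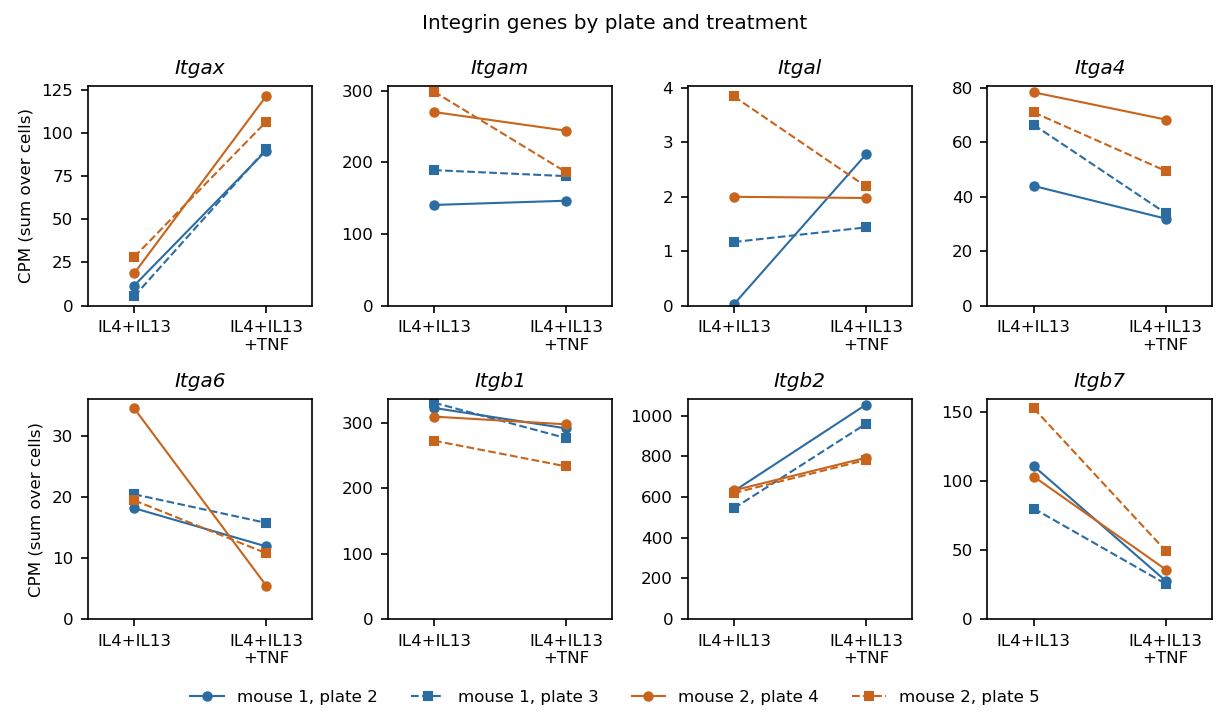
CPM of each integrin gene, summed over the kept cells of a plate (linear y axes that start at 0), for IL4+IL13 alone and together with TNF; each line joins the 2 treatments of 1 plate, in blue for mouse 1 and orange for mouse 2. All 4 lines climb for *Itgax*, from 5.35 to 28.2 CPM up to 90.01 to 122 CPM, and all 4 descend for *Itgb7*, while those of *Itgam* and *Itgal* go both ways.

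Of the alpha chains that pair with *Itgb2*, *Itgax* had the largest difference. Its level was 8.43 CPM in mouse 1 and 23.1 CPM in mouse 2 without TNF, and 90.7 and 114 CPM with TNF. Within plates it ran from 5.35 to 28.2 CPM without TNF and from 90.01 to 122 CPM with it. Both mice were higher with TNF and the groups did not overlap. The log2 fold change was 2.70 ± 0.52 (SE, n = 2 mice), with an edgeR adjusted p of 0.271 without the block, 0.0145 with it and 1.28e-06 with DESeq2. It was 3.35 in mouse 1 and 2.28 in mouse 2, and within plates it ran from 1.90 to 3.97. The log2 fold change was 3.605 without the IL4+IL13 sum of mouse 2 and 2.15 without that of mouse 1. A sum over cells does not tell more *Itgax* per cell from more cells with *Itgax*. To look at single cells, cells were thinned to 339000 fragments each, and a share is the percentage of them with at least 1 fragment. *Itgax* was found in 16.9% (95% exact interval 13 to 21.3) and 25.9% (21.1 to 31.2) of cells without TNF and in 62.0% (56.3 to 67.5) and 55.2% (49.5 to 60.9) with TNF. The intervals of the treatments lay apart in both mice, though they cover only counting over the cells of 1 mouse. With 5 or more fragments as the limit the shares were 10.2% and 12.6% without TNF and 51.2% and 39.9% with it. The difference was 37.3 ± 11.2 percentage points (SD, n = 2 mice, exact permutation p = 0.333, the smallest that 4 values allow). With TNF, 25.6% and 27.8% of cells exceeded 100 CPM, against 2.80% and 6.61% without it, and the highest cell in each mouse stood at 961 and 1969 CPM, against 216 and 698 CPM.

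*Ccr7* moved in the same direction as *Itgax* and marks mature dendritic cells, so the fit was repeated on cells without any *Ccr7* fragment, a choice made after seeing the data. Cells with a *Ccr7* fragment, which this left out, numbered 19 and 45 without TNF and 44 and 114 with TNF. With the mouse as a block, 1.89% of all genes were then called. *Itgax* was then at 8.83 and 24.4 CPM against 96.2 and 120 CPM, a log2 fold change of 2.70 (edgeR adjusted p 0.295, or 0.0363 with the mouse as a block). With all cells it was 2.70 too. A cell without a *Ccr7* fragment may still be a dendritic cell, so the part of such cells in the *Itgax* difference was not tested.

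*Itgam* stood at 166 and 282 CPM without TNF and at 166 and 215 CPM with it. The groups overlapped, mouse 1 had almost the same value in both, and mouse 2 was lower with TNF. The log2 fold change was -0.23 ± 0.31 (SE, n = 2 mice, edgeR adjusted p 0.931, or 0.457 with the block), and its sign turned to 0.20 without the IL4+IL13 sum of mouse 2. It was found in 93.1% and 96.8% of cells without TNF and in 92.4% and 92.5% with it. Whether fragments were lost to the overlap with *Gm49368*, and differently between treatments, was not tested.

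*Itgal* was near the limit of detection. It held 111 and 481 fragments without TNF and 316 and 366 with it, or 0.611 and 2.85 CPM against 2.03 and 2.09 CPM. One mouse was higher with TNF and the other lower, and the log2 fold change of 0.25 ± 0.75 (SE, n = 2 mice, edgeR adjusted p 0.978) became -0.48 without the IL4+IL13 sum of mouse 1. It was found in 1.51% (95% exact interval 0.491 to 3.48) and 7.12% (4.52 to 10.6) of cells without TNF and in 6.93% (4.34 to 10.4) and 7.52% (4.82 to 11.1) with it.

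*Itgb2*, the beta chain of these receptors, was found in every thinned cell without TNF and in 99.7% of cells of either mouse with it. Its level was 588 and 623 CPM without TNF and 1004 and 788 CPM with it. Both mice were higher with TNF and no plate overlapped, from 544 to 633 CPM against 782 to 1054 CPM. The log2 fold change of 0.57 ± 0.17 (SE, n = 2 mice) did not pass the test, with an edgeR adjusted p of 0.494, of 0.0828 with the block and of 0.340 with DESeq2. The processed pseudogene *Gm14699* (chrX:68782640-68782867) matches *Itgb2* at 220 of 228 bases. It held 8899 fragments in the kept cells, 1.76% of the 506096 of *Itgb2*, so fragments of the pair cannot be told apart with certainty.

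**Figure D2:**
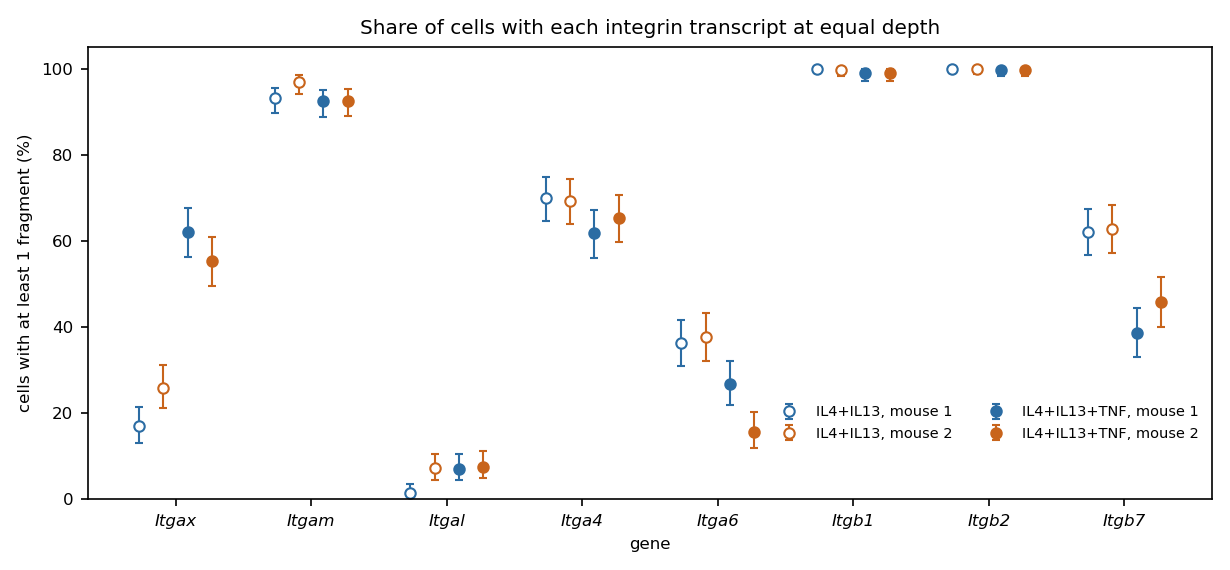
Percentage of cells with at least 1 fragment of each integrin gene after thinning to 339000 fragments per cell; open circles are IL4+IL13 and filled circles IL4+IL13+TNF, blue for mouse 1 and orange for mouse 2, and bars are 95% exact binomial intervals. The intervals of the treatments lie apart for *Itgax* and *Itgb7* in both mice and overlap for *Itgam* and *Itga4*. They cover counting over the cells of 1 mouse, so they do not test the difference between treatments.

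*Itgb7* fell in the fit with the block. Its level was 95.6 and 126 CPM without TNF and 26.5 and 42.8 CPM with TNF, and both mice were lower with TNF with no overlap. The log2 fold change was -1.68 ± 0.31 (SE, n = 2 mice), with an edgeR adjusted p of 0.263 without the block, 0.00865 with it and 6.10e-05 with DESeq2, and it ran from -1.99 to -1.51 within plates. Leaving out cells with *Ccr7* gave -1.79 (edgeR adjusted p 0.243, or 0.0240 with the block). The gene was unevenly spread over cells: the 5% of cells with the highest values held 42.3% and 38.0% of its summed CPM without TNF, and 48.7% and 48.0% with it. This was not particular to *Itgb7*. The same share was 47.2% and 61.8% for *Itga6* without TNF, and 52.1% and 78.2% with it. For *Itgax* it was 69.7% and 75.5% without TNF, and 34.6% and 39.9% with it. *Itgb7* was found in 62.0% (95% exact interval 56.6 to 67.3) and 62.8% (57.1 to 68.2) of cells without TNF, and in 38.6% (33.1 to 44.4) and 45.8% (40.1 to 51.5) with it. That difference was -20.2 ± 4.53 percentage points (SD, n = 2 mice, exact permutation p = 0.333), and it was negative on 4 of 4 plates.

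*Itga4*, which pairs with *Itgb7* or *Itgb1*, stood at 55.7 and 74.5 CPM without TNF and at 33.1 and 58.9 CPM with it. Each mouse and each of the 4 plates was lower with TNF, but the groups overlapped, and the log2 fold change of -0.50 ± 0.34 (SE, n = 2 mice) did not pass the test (edgeR adjusted p 0.818, or 0.118 with the block). It was found in 69.9% and 69.3% of cells without TNF and in 61.7% and 65.4% with it. *Itga4* and *Itgb7* were found together in 44.0% and 42.4% of cells without TNF and in 25.4% and 29.1% with it, and their Spearman correlation across cells lay between -0.05 and 0.02 in the 4 sets of cells.

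*Itga6*, the laminin-binding alpha chain, stood at 19.4 and 27.2 CPM without TNF and at 14.1 and 8.16 CPM with it. Both mice and all plates were lower with TNF, without overlap, and the log2 fold change of -1.07 ± 0.36 (SE, n = 2 mice) did not pass the test (edgeR adjusted p 0.534, or 0.146 with the block and 0.102 with DESeq2). The mice differed in size, at -0.45 in mouse 1 and -1.68 in mouse 2, and plate 4 alone gave -2.55. It was found in 36.1% and 37.5% of cells without TNF and in 26.7% and 15.7% with it.

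*Itgb1*, the most widely shared beta chain, stood at 328 and 290 CPM without TNF and at 284 and 265 CPM with it. The mice did not overlap but the plates did, and the log2 fold change of -0.17 ± 0.16 (SE, n = 2 mice) did not pass the test (edgeR adjusted p 0.887, or 0.380 with the block). At least 99.0% of the thinned cells of each mouse held it under either treatment. The ratio of *Itgb1* to *Itgb7*, both per kb, was 2.33 and 1.56 without TNF and 7.27 and 4.20 with it, so it was higher with TNF in both mice.

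The next comparison set *Itgax* against *Itgam* in the same cell. Both genes were found in 15.7% and 23.9% of cells without TNF and in 57.8% and 50.7% with it. *Itgam* alone was found in 77.4% and 72.8% of cells without TNF and in 34.7% and 41.8% with it, and *Itgax* alone in at most 4.58% of any set. Among cells with either gene, the median log2 ratio of *Itgax* to *Itgam*, each as fragments per kb plus 1, was -3.10 and -3.72 without TNF and -1.31 and -2.13 with it. The difference was 1.69 ± 0.14 (SD, n = 2 mice, exact permutation p = 0.333), and it became 3.604 with 0.1 added in place of 1 and 2.50 on CPM per kb without thinning. *Itgax* exceeded *Itgam* per kb in 5.12% (95% exact interval 3.01 to 8.07) and 6.47% (4 to 9.82) of cells without TNF, and in 24.8% (19.996 to 30.0) and 25.2% (20.4 to 30.4) with it. With *Itgam* scaled by its unshared bases, these percentages were 2.41% and 3.24% against 14.9% and 14.4%, while the difference in the median log2 ratio was 1.72.

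**Figure D3:**
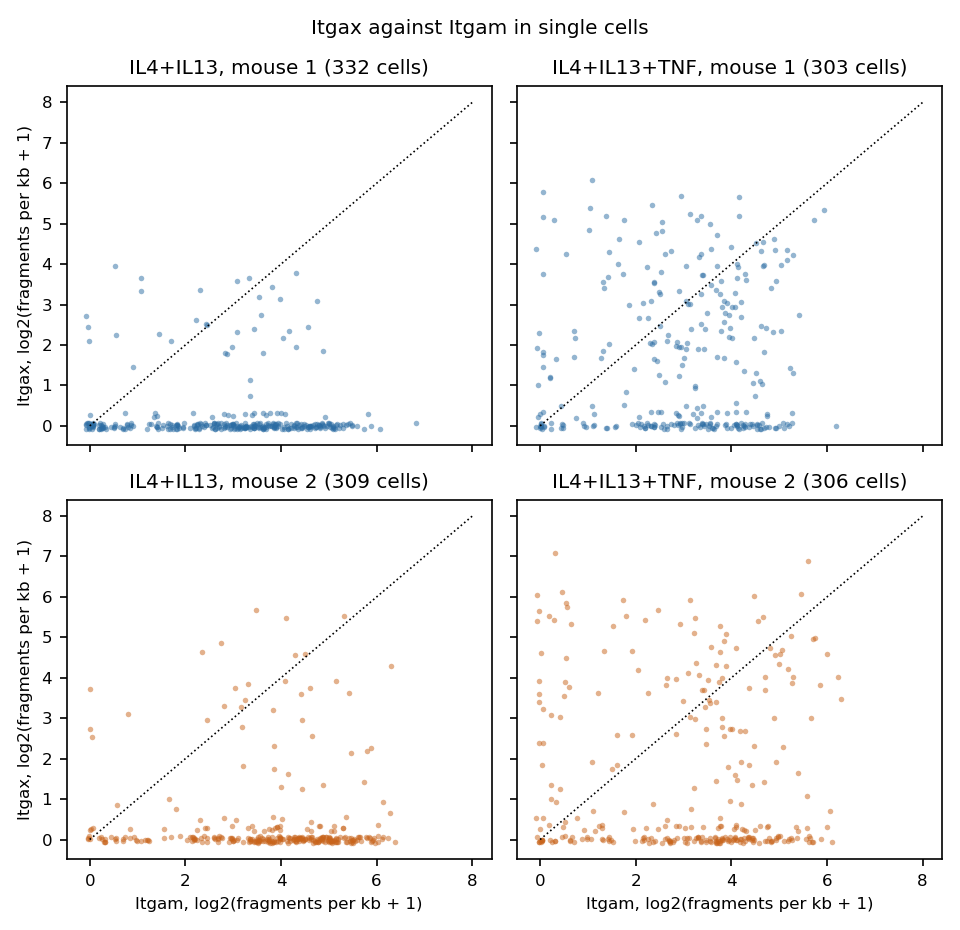
*Itgax* (y axis) against *Itgam* (x axis) in single cells, both as log2(fragments per kb + 1) after thinning to equal depth and with a small jitter, by treatment (columns) and mouse (rows); the dotted line marks equal values. With IL4+IL13 most cells lie on the floor of *Itgax*, while 24.8% and 25.2% of cells lie above the line with TNF.

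Across the cells of each set, *Itgax* and *Itgam* were hardly related. Spearman correlations were -0.04 and -0.05 without TNF (332 and 309 cells) and 0.02 and -0.04 with it (303 and 306 cells). *Itgax* tracked the beta chain instead, with correlations to *Itgb2* of 0.22, 0.29, 0.47 and 0.37 in the same order, the highest mean of the 28 pairs among the 8 genes (0.34, against a median of 0.00). These cells share plates and depth, and the values are a description.

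*Itgam*, *Itgax* and *Itgal* are 3 of the alpha chains that pair with *Itgb2*. A further one, *Itgad*, was left out of the shares below. It stood at 0.0715 and 0.255 CPM without TNF and at 0.302 and 0.536 CPM with it. Per kb and summed over cells, *Itgax* made up 5.03% and 7.82% of the transcripts of the 3 chains without TNF, and 36.1% and 35.5% with it. By the unshared bases of *Itgam*, the same shares were 1.63% and 2.60% against 15.1% and 14.8%. On either scale *Itgam* held the larger part in every set. The ratio of *Itgb2* to the sum of the 3 alpha chains was 5.52 and 3.32 without TNF and 6.29 and 3.86 with it on the length of the table, and 1.79 and 1.11 against 2.64 and 1.61 on the unshared bases.

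**Figure D4:**
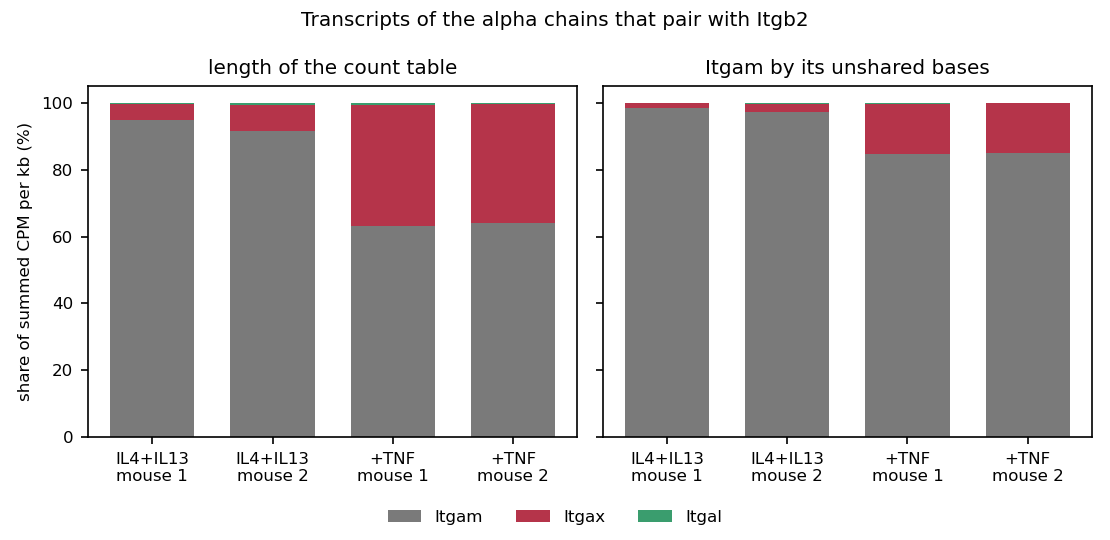
Share of *Itgam*, *Itgax* and *Itgal* in their summed CPM per kb for each mouse and treatment (bars start at 0 and reach 100%), with the gene lengths of the count table (left) and with *Itgam* scaled by the exonic bases it does not share with *Gm49368* (right). The *Itgax* share goes from 5.03% and 7.82% to 36.1% and 35.5% on the left and from 1.63% and 2.60% to 15.1% and 14.8% on the right.

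For each gene found in at least 25% of cells of 1 treatment, the 3 genes with the most similar pattern were sought among 10652 genes, by the mean Spearman correlation over the 4 sets of cells. For *Itgax* they were *Cd52* (0.39), *Anxa1* (0.38) and *Itgb2* (0.34). For *Itgb2* they were its copy *Gm14699* (0.72), *Anxa1* (0.55) and *Ctss* (0.44), the cysteine protease cathepsin S. *Anxa1*, which encodes the phospholipid-binding protein annexin A1, was near both. *Itgam* was nearest to *Mrc1* (0.25), the mannose receptor, to the pseudogene *Gm3534* (0.25) and to *Csf1r* (0.25), the CSF1 receptor. *Itgb7* was nearest to *Lsp1* (0.34), a leukocyte actin-binding protein, to *H2-DMa* (0.29), which loads peptides on MHC class II, and to *Eno1b* (0.28), a retrogene of enolase.

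The other genes had weaker neighbours. *Itga4* was nearest to *Ankrd44*, *Nupr1* and *Mxd1* (0.14 to 0.12), *Itga6* to *Wwp1*, *Igfbp4* and *Serinc3* (0.16 to 0.15) and *Itgb1* to *Vim*, *Calr* and *Cpd* (0.15 to 0.13). *Itgax* also correlated with the cell-fusion gene *Dcstamp* at 0.18 and 0.21 without TNF and at 0.34 and 0.47 with it. Its correlations with the elastase *Mmp12* were 0.30, 0.34, 0.36 and 0.34 in the same order.

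The other genes of the pathway were taken as 6 lists. In the edgeR fit without the block none of their genes passed, and those with an unadjusted p under 0.05 numbered 2 of 8 other integrin subunits, 2 of 10 ligands, 1 of 11 genes of the activation machinery, 4 of 22 of the adhesion complex and its kinases, 2 of 10 tetraspanins and partners and 3 of 11 transcription regulators, beside 8.1% of all genes tested. Of the 18 other integrin subunits, 8 passed the filter on low counts. With the block *Itgb3*, the beta chain of the vitronectin receptor, fell, as it did with DESeq2, and none rose. Over all genes tested, 3.82% were called with the block and 3.51% with DESeq2. *Itgb3* stood at 25.6 and 34.3 CPM without TNF and at 9.25 and 13.6 CPM with it, a log2 fold change of -1.39 ± 0.30 (SE, n = 2 mice, edgeR adjusted p 0.329, or 0.0187 with the block). Without cells holding *Ccr7* its call with the block was lost (-1.20, edgeR adjusted p 0.0548), in a fit that called 1.89% of all genes. The median of the 8 was 0.15.

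Of 22 integrin ligands, 10 were tested, and with the block and with DESeq2 2 rose and 0 fell. The block called 3.82% of all genes and DESeq2 3.51%. *Icam1*, a ligand of LFA-1 and Mac-1, stood at 16.9 and 25.5 CPM without TNF and at 131 and 101 CPM with it (log2 fold change 2.45 ± 0.29, edgeR adjusted p 0.155, or 0.0148 with the block). *C3*, the complement protein whose fragment iC3b is bound by the receptors of *Itgam* and *Itgax*, stood at 7.72 and 32.3 CPM against 561 and 855 CPM (log2 fold change 5.14 ± 0.80, edgeR adjusted p 0.210, or 0.00798 with the block). Without the IL4+IL13 sum of mouse 2 the value of *C3* was 6.52 (edgeR adjusted p 0.0371), and without that of mouse 1 it was 4.45. The median of the 10 was 0.18.

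Of 13 genes of the activation machinery, 11 were tested, with a median of 0.03. None was called by edgeR with or without the block or by DESeq2. Of all genes, 3.82% were called with the block, 0.00587% without it and 3.51% with DESeq2. Among genes found in at least 25% of cells, the largest fold changes that went 1 way in both mice were those of *Cyth1* (-0.48 ± 0.47, edgeR adjusted p 0.896), which encodes cytohesin, *Rassf5* (-0.48 ± 0.18, edgeR adjusted p 0.604), the Rap1 effector RAPL, and *Apbb1ip* (-0.39 ± 0.30, edgeR adjusted p 0.855), the Rap1 effector RIAM. The first and last changed sign without the IL4+IL13 sum of mouse 2, to 0.18 and 0.012.

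Of 23 genes of the adhesion complex and its kinases, 22 were tested, and with the block and with DESeq2 4 rose and 0 fell. Among all genes, 3.82% were called with the block and 3.51% with DESeq2. The 4 genes included the tyrosine kinases *Src* and *Fgr* and the actin regulator *Vasp*. *Fgr* stood at 1.06 and 1.90 CPM without TNF and at 22.6 and 20.96 CPM with it (log2 fold change 3.88 ± 0.39, edgeR adjusted p 0.135, or 0.00894 with the block). *Src* stood at 0.561 and 0.854 CPM against 7.27 and 8.50 CPM (3.48 ± 0.40, edgeR adjusted p 0.150, or 0.00999 with the block). *Vasp* stood at 36.2 and 48.0 CPM against 135 and 145 CPM (1.74 ± 0.21, edgeR adjusted p 0.165, or 0.00798 with the block). The median of the 22 was 0.05.

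All 10 tetraspanins and membrane partners were tested. With the block and with DESeq2 1 rose and 0 fell, against 3.82% and 3.51% of all genes called. It was *Cd82*, at 24.5 and 30.4 CPM without TNF and 51.5 and 53.5 CPM with it (log2 fold change 0.93 ± 0.20, edgeR adjusted p 0.334, or 0.0307 with the block). That call too was lost without cells holding *Ccr7* (0.91, edgeR adjusted p 0.0773 with the block). The share of all genes called with the block fell there from 3.82% to 1.89%. All 11 myeloid transcription regulators were tested, and with the block 1 rose and 1 fell. *Runx3* stood at 0.0825 and 0.202 CPM against 1.33 and 1.44 CPM (3.28 ± 0.58, edgeR adjusted p 0.244, or 0.0261 with the block), and its log2 fold change was 0.96 with limma on log2(mean CPM + 1). Without cells holding *Ccr7* it was 1.23, or 1.18 with the block (edgeR adjusted p 0.461), so that the call was lost. *Cebpa* stood at 44.0 and 74.5 CPM against 24.04 and 41.5 CPM (-0.85 ± 0.39, edgeR adjusted p 0.676, 0.0292 with the block and 0.346 with DESeq2), and its call with the block was lost without cells holding *Ccr7* (-0.80, edgeR adjusted p 0.0610). *Spi1*, which encodes PU.1, stood at 141 and 142 CPM against 173 and 128 CPM (0.09, edgeR adjusted p 0.971). The medians of the last 2 lists were 0.16 and -0.35.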

How the data were processed

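Single BMDMs were sequenced with Smart-seq2, which marks neither strand nor molecule. According to the paper and the submitters' processing notes, the authors aligned fragments to mm10 with gsnap and deposited counts of uniquely mapped fragments per Ensembl 98 gene from featureCounts 1.6.3, not normalized. The 4 samples whose labels give no mouse were not assigned, and 8 columns that match no sample were not used. Wells were left out when more than 3 median absolute deviations below their plate's median (log total or detected genes) or above it (mitochondrial or spike-in share), and spike-ins were left out of totals. No doublet caller was run on the singly sorted cells. Kept cells had medians of 447264 to 490310 fragments, and no molecular identifiers, so intervals cover counting error only.

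Counts summed per mouse and treatment were tested with edgeR 4.0.16 (R 4.3.3, quasi-likelihood, TMM, Benjamini-Hochberg over 17034 genes found in at least 5% of cells of either treatment and passing filterByExpr). Alternatives were the mouse as a block, DESeq2 1.42.0, limma 3.58.1 on log2(mean CPM + 1), library size, other cell and gene filters and leaving out each sum. The numbers in the titles, taken as the mice, pair the samples (deviations of the same number correlated at r = 0.568 over 17034 genes). That correlation cannot tell a shared animal from shared plates or a shared experiment. The fit was tested first on simulated counts. Each SE of a log2 fold change came from the fit without the block. It is the size of the fold change divided by the square root of its quasi-likelihood F statistic. Folds within a mouse or plate use CPM + 0.5. Shares and ratios used 1250 cells thinned to 339000 fragments, with exact 95% Clopper-Pearson intervals. The gene lengths of the table are unions of exons. Positions came from the table and promoters, for 5 of the 8 genes, from RefSeq. *Itgal*, *Itga6* and *Itgb2* had none.

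From the other lists, the text names genes past the threshold with or without the block, or otherwise up to 3 with the largest fold change in 1 direction in both mice that are found in at least 25% of cells. Other genes were named after their values were seen. One gene that the rule names is not reported here. The members and lists were chosen with earlier results of these data known. Other steps and the figures were made in Python 3.11.15 (scipy 1.17.1, numpy 2.4.6, matplotlib 3.10.9, pandas 2.3.3).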

Additional observations from a re-analysis of the deposited data

Results flagged for a closer look

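Within 1 treatment, 2 values of a single plate stood far from the other 3 plates, among 16 groups of 4 plates examined, where chance gives about 1 in 20. *Itga6* was at 34.5 CPM on plate 4 with IL4+IL13, against 18.1 to 20.4 CPM on the other plates. *Itgb2* was at 544 CPM on plate 3 with IL4+IL13, against 620 to 633 CPM on the others.

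3 of the 4 samples that were assigned to no group had a column, with totals of 279461, 354874 and 87198 fragments, and all 8 integrin genes had more than 3 fragments in at least 1 of them. The highest values were 21 fragments for *Itgax*, 131 for *Itgam*, 5 for *Itgal*, 29 for *Itga4*, 12 for *Itga6*, 96 for *Itgb1*, 225 for *Itgb2* and 6 for *Itgb7*.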

How the results depend on the processing

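The edgeR fit without a block called 1 gene of the whole table, higher with TNF. The mouse as a replicate block gave 651 (331 higher, 320 lower) and DESeq2 gave 598 (305 higher, 293 lower). Leaving out each sum gave 4 to 30 genes, 3 to 29 higher and 0 to 1 lower, where the lone sum left in 1 treatment is taken to spread as those of the other do. *Itgax* and *Itgb7* passed the threshold with the block (log2 fold changes 2.86 and -1.70), with DESeq2 (2.69 and -1.69) and with the block without cells holding *Ccr7* (2.87 and -1.80), and in none of the other alternatives. Leaving out cells holding *Ccr7*, the block called 322 genes of the whole table, and *Itgb3*, *Cd82*, *Runx3* and *Cebpa* lost their call there. The block changed no call of the other 6 integrin genes. Leaving out each sum gave -0.57 to 0.20 for *Itgam* and -0.48 to 1.76 for *Itgal*, the only integrin genes whose sign turned. *Apbb1ip* (-0.71 to 0.012) and *Cyth1* (-0.94 to 0.18) turned without the IL4+IL13 sum of mouse 2. Library size in place of TMM moved the median of all genes to -0.09 and turned no integrin gene.

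The difference in share for *Itgb1* was -0.27 points without thinning, -1.09 at 100000 fragments and -1.15 with the fixed cell filter, beside -0.82. For *Itgb2* it was 0 without thinning, -1.28 at 100000 fragments, -0.86 at 5 fragments or more and 0.14 with the fixed filter, beside -0.33. The difference in the log2 ratio of *Itgax* to *Itgam* was 3.604 with 0.1 added and 2.50 without thinning, beside 1.69. With 2 mice, the exact tests of shares and ratios cannot reach the threshold.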
